A study of Mus musculus with 19 samples.

Results

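Collagens are the genes described here: every row of the deposited count tables whose Ensembl identifier belongs to a gene named Col, a number, a and a number. The rule used names only and found 44 of the 35274 genes listed, which were grouped as 11 fibrillar, 8 basement membrane and 25 other collagen genes. RNA came from mouse hepatocytes of 3 populations with 5 samples each by their titles. All of the mice had the genotype OPN-CreERT2;Rosa26R-mT/mG, in which tamoxifen activates a Cre recombinase driven by osteopontin, and Cre switches a cell and its progeny from tdTomato to a green marker. The CTL group held native hepatocytes from healthy liver. RED samples were native tdTomato hepatocytes of chronically injured liver. The GREEN group came from chronically injured liver too, and its hepatocytes are called DR-derived (the labels do not spell out DR), so that GREEN cells are those in which, or in whose ancestors, the osteopontin-driven Cre was active. The labels as used here give no age and no sex, and they do not say which samples came from separate animals. By their library codes each GREEN sample shares a number with a RED sample: GREEN 1 with RED 2, GREEN 2 with RED 3, both GREEN 3 and GREEN 4 with RED 4, and GREEN 5 with RED 5. The library names of GREEN 3 and GREEN 4 match in full but for their ending. So do the names of the 2 libraries of each sample sequenced in both experiments. GREEN 3 and GREEN 4 have different titles and were kept as 2 samples, though they may be 1 sample sequenced in both experiments. The labels do not say what the shared number marks, so the 5 GREEN samples may come from fewer than 5 animals.

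A collagen is built of 3 chains wound into a triple helix, and each collagen gene encodes a chain. The helix requires glycine as the first of each 3 residues, so collagen coding sequence is a repeat of glycine triplets, each a glycine codon (GGN) followed by a further pair of codons. Fibrillar collagens form the cable-like fibers of scar tissue, type IV collagen forms the sheet-like network of basement membranes, and the remaining families anchor, coat or link these. In injured liver, activated hepatic stellate cells and portal fibroblasts are known as the main producers of fibrillar collagen, and bile duct epithelium rests on a basement membrane that hepatocytes lack.

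The repeat is what sets the fibrillar and the type IV chains apart, and it is shown here for 2 fibrillar chains at the start of their longest run and for 2 type IV chains where it ends. Each sequence is 90 bases of spliced coding sequence of the GENCODE M21 annotation on GRCm38, written 5′ to 3′ on the gene's strand, with glycine codons in capitals. The spans are chr11:94939451-94939939 (plus strand, 2 exon junctions inside), chr6:4512406-4515516 (plus strand, 2 junctions), chr8:11209571-11210769 (minus strand, 1 junction) and chr1:82487537-82489020 (minus strand, 1 junction).
Col1a1: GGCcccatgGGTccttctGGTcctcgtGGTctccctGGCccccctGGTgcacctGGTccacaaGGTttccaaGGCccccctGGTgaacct
Col1a2: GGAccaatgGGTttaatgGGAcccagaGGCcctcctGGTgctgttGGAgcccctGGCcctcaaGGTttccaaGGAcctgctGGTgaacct
Col4a1: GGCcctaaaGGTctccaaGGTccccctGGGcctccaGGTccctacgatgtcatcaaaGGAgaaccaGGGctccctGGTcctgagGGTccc
Col4a4: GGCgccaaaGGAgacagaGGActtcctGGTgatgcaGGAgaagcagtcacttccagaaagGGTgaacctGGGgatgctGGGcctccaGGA
In the Col1a1 and Col1a2 stretches a capital codon opens each 3 codons from end to end. In Col4a1 and Col4a4 the repeat breaks off and then resumes. Col1a1 had an uninterrupted run of 338 triplets in 1452 codons, Col1a2 of 339 in 1371 and Col3a1 of 344 in 1463. Col24a1 and Col27a1, fibrillar chains of a separate branch, had shorter runs of 216 and 217 triplets. The 6 type IV chains held 427 to 451 triplets in runs of 5 or more, but their longest runs were 39 to 66 triplets. Col18a1 and Col15a1, the multiplexins, each had a longest run of 30 triplets. Among the other chains the longest run was between 23 triplets (Col26a1) and 113 (Col9a1, Col9a2, Col9a3 and Col22a1).

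**Figure D1:**
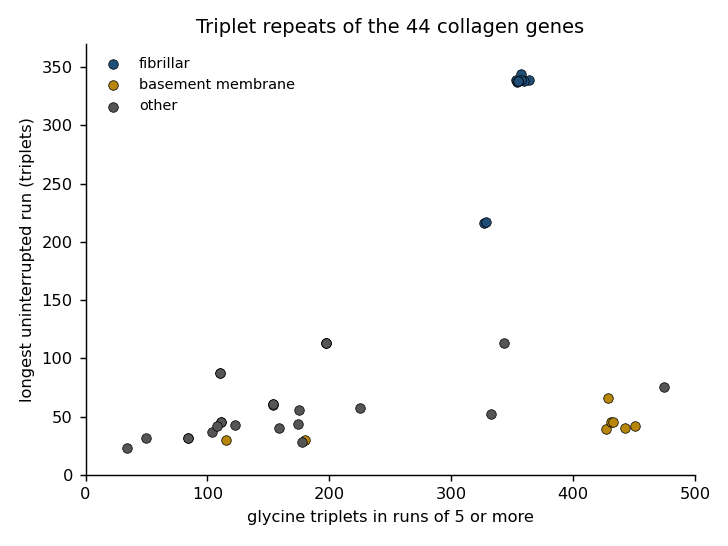
Each point is 1 of the 44 collagen genes, placed by the number of glycine triplets in runs of 5 or more (horizontal axis) and by its longest uninterrupted run (vertical axis), both counted in the coding sequence. Fibrillar chains lie at 216 to 344 triplets on the vertical axis, and basement membrane chains at 30 to 66.

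Of the 44 genes, 39 passed the filter on low counts. Those below it were Col2a1, Col6a4, Col9a1, Col11a1 and Col19a1. Each sample entered the tests with 1 library, 2 per group from experiment 1 (a poly(A) kit) and 3 per group from experiment 2 (a kit that depletes ribosomal RNA). Library totals were 22442607 to 34216824 estimated counts in experiment 1 and 38061859 to 44177627 in experiment 2. The summed level of 10 hepatocyte markers (Alb, Ttr and Hnf4a among them) was 142140 to 196170 CPM in CTL, 109290 to 154330 in RED and 41304 to 100660 in GREEN, where CPM is the count scaled by library total and TMM factor. None of the 10 passed the test in RED versus CTL (edgeR; 1 lower at an unadjusted p under 0.05, and DESeq2 called 1 lower and limma-voom 0), and all 10 were lower in GREEN than in CTL. In GREEN versus RED edgeR called 0 of the 10, with 8 lower at an unadjusted p under 0.05, while DESeq2 called 8 lower and limma-voom 7. The median log2 fold change over all 16387 genes tested was 0.05 in RED versus CTL, -0.02 in GREEN versus RED and 0.11 in GREEN versus CTL. With libraries scaled by their totals instead, these medians were 0.33, 0.42 and 0.83.

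Native hepatocyte samples of injured liver held more collagen RNA than those of healthy liver for 20 of the 39 tested genes and less for 1, Col15a1. Over all genes tested, 14.1% were higher and 2.04% were lower in this comparison. The 20 genes included Col1a1, Col1a2, Col3a1, Col5a1, Col5a2 and 4 type VI chains, and the largest fitted differences were those of Col8a1 (log2 fold change 5.08), Col6a3 (5.05) and Col3a1 (4.91). By class, 6 of 11 fibrillar (9 tested), 4 of 8 basement membrane (8 tested) and 10 of 25 other collagen genes (22 tested) rose. DESeq2 called 6, 5 and 10 of these classes higher, and limma-voom 6, 2 and 9. The median log2 fold change of the tested genes was 4.03 for fibrillar, 1.78 for basement membrane and 1.23 for other collagen genes, beside 0.05 for all genes. With experiment 2 alone, 13 genes were higher and 0 lower (edgeR, with no other tool run on it; 23 of the 39 had an unadjusted p under 0.05 in either direction). Over all genes, 1100 of 16816 tested were then higher and 76 lower, against 2314 and 334 of 16387 in the main fit. The p-values throughout measure the spread between these samples, which may be partly technical.

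DR-derived hepatocyte samples held more RNA than native ones of injured liver for 19 of the 39 genes, and less for none (edgeR; 1 gene was lower at an unadjusted p under 0.05, and DESeq2 and limma-voom called 0 lower). Over all genes tested, 9.68% were higher and 3.29% were lower. Collagen I and III, all of the type IV chains but Col4a1 and Col4a2, and 5 type VI chains were among the 19. By class these were 3 of 11 fibrillar (9 tested), 5 of 8 basement membrane (8 tested) and 11 of 25 other genes (22 tested). Col8a2, Col9a2 and Col28a1, counted among the 19, were at most 0.389, 0.0718 and 0.127 CPM in CTL and RED. They passed the filter on low counts through their GREEN samples, so they could enter the counts with GREEN only as higher. The medians over the tested genes were 1.05, 1.52 and 1.51, beside -0.02 for all genes. DESeq2 called 4, 5 and 13 of these classes higher, and limma-voom 4, 5 and 11. Without GREEN 5 the count was 11, and without GREEN 4 and GREEN 5, the experiment 1 libraries of this group, it was 3 (Col1a1, Col8a2 and Col28a1). Experiment 2 alone gave 0 (edgeR, with no other tool run on it), with 18 of the 39 genes at an unadjusted p under 0.05 in either direction and 29 of 39 fold changes above 0. The same settings lowered the count of all genes called higher from 1586 to 866, 263 and 67. With GREEN 3 or GREEN 4 left out, so that their shared library name counts once, 13 and 14 collagen genes were higher. The count over all genes is not given for these fits.

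GREEN versus CTL called 29 collagen genes higher and 1, Col18a1, lower, where 29.5% of all genes tested were higher and 18.7% lower. Both comparisons with GREEN, and both with CTL, share those libraries. The 29 were 6 fibrillar, 6 basement membrane and 17 other genes.

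**Figure D2:**
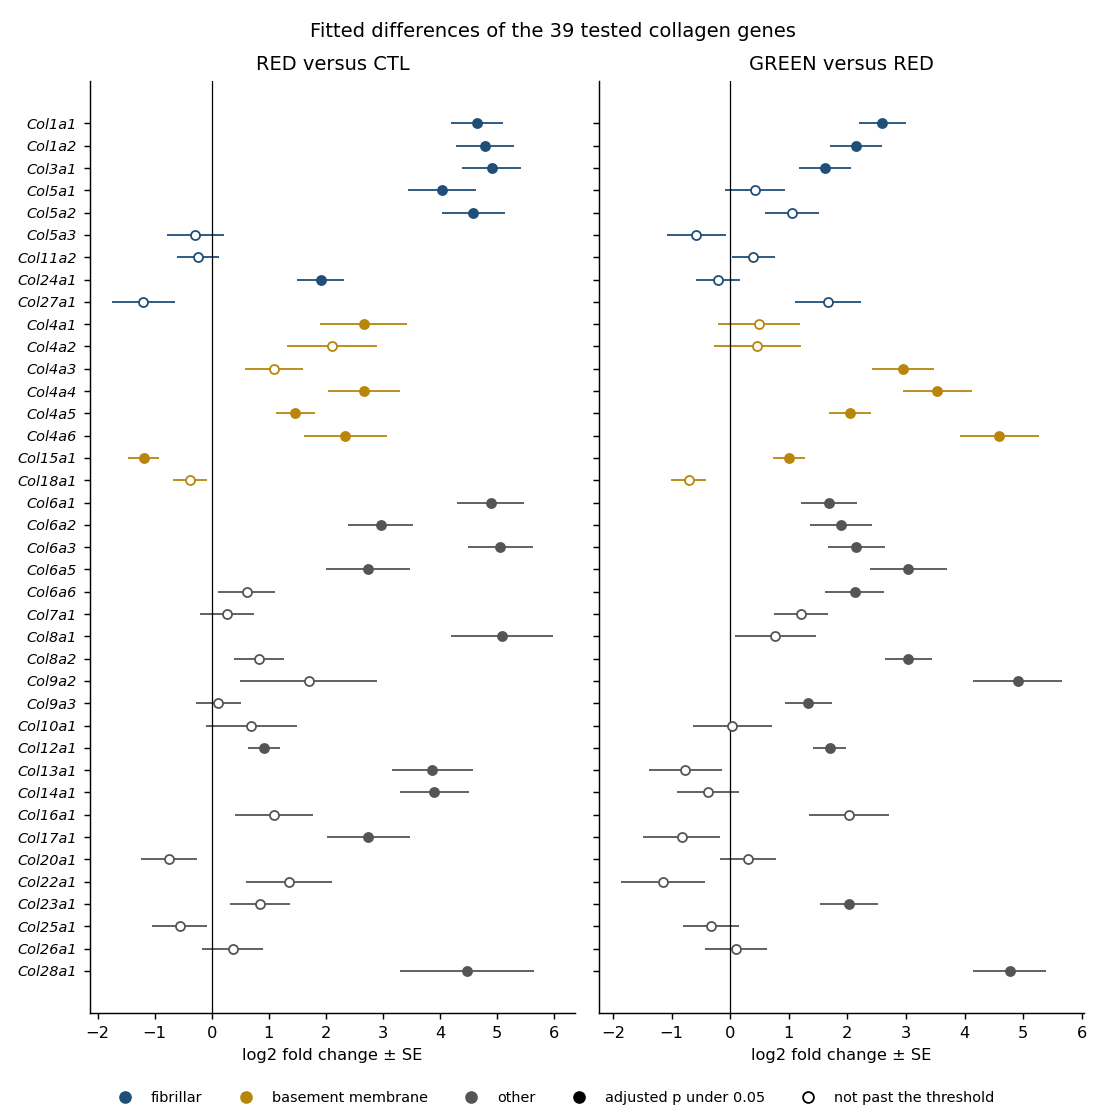
Fitted log2 fold change (horizontal axis) with its standard error for the 39 tested collagen genes, for RED versus CTL (left) and GREEN versus RED (right). Filled points had an adjusted p under 0.05. The CTL libraries held no count of Col28a1, so its RED versus CTL value depends on the fit's prior count. Col5a1, Col5a2, Col8a1, Col13a1 and Col14a1 are filled at the left and open at the right, while Col4a3, Col8a2 and Col9a2 are open at the left and filled at the right.

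Collagen I is the main fiber of scar tissue, made of a pair of alpha 1 chains (Col1a1) and an alpha 2 chain (Col1a2). Col1a1 was at 0.78, 1.07, 2.05, 1.03 and 2.57 CPM in CTL 1 to 5, 19.2, 20.8, 30.9, 52.7 and 66 CPM in RED 1 to 5, and 167, 173, 269, 195 and 345 CPM in GREEN 1 to 5. The 3 groups did not overlap: every GREEN sample was above every RED sample, and every RED sample was above every CTL sample. Means were 1.5 ± 0.769, 37.9 ± 20.6 and 229.9 ± 76.1 CPM (SD, n = 5). The log2 fold change was 4.64 (SE 0.45, adjusted p = 2.0e-04) in RED versus CTL and 2.59 (SE 0.40, adjusted p = 0.0012) in GREEN versus RED. Col1a2 was at 1.22, 2.67, 1.34, 1.08 and 2.74 CPM in CTL 1 to 5, 30.2, 22.6, 43.6, 64 and 109 CPM in RED 1 to 5, and 145, 151, 221, 237 and 464 CPM in GREEN 1 to 5. Its groups did not overlap either, with RED 2 the lowest and RED 5 the highest of the RED samples. For Col1a2 the differences were 4.79 (SE 0.51, adjusted p = 2.1e-04) and 2.15 (SE 0.44, adjusted p = 0.0071) in the same comparisons. Neither call of Col1a2 changed when any 1 sample was left out, but the second was not made in experiment 2 alone (log2 fold change 1.99, adjusted p = 0.083) or without GREEN 4 and GREEN 5 together (1.69, adjusted p = 0.22).

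Collagen III, a homotrimer of Col3a1 chains, is laid down with collagen I in early scar. Col3a1 was at 2.03, 3.89, 2.36, 2.62 and 4.34 CPM in CTL 1 to 5, 49.9, 34.3, 74.8, 119 and 217 CPM in RED 1 to 5, and 195, 159, 286, 354 and 562 CPM in GREEN 1 to 5. All RED samples were above all CTL samples, while RED 5 reached above GREEN 1 and GREEN 2. The log2 fold change was 4.91 (SE 0.52, adjusted p = 2.1e-04) in RED versus CTL and 1.62 (SE 0.44, adjusted p = 0.031) in GREEN versus RED. That second call was not made without RED 1, RED 3, GREEN 3, GREEN 4 or GREEN 5 (adjusted p 0.059 to 0.11).

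Collagen V regulates the width of collagen I fibers, and its chains did not follow 1 pattern. Col5a1 was at 1.22, 4.44, 1.38, 0.456 and 2.33 CPM in CTL 1 to 5, 10.7, 13.6, 29.2, 43.8 and 63.5 CPM in RED 1 to 5, and 41.9, 28, 48.1, 43.1 and 54.7 CPM in GREEN 1 to 5. Here RED and GREEN overlapped, and RED 5 was the highest of all samples. Col5a1 rose in RED versus CTL by 4.03 (SE 0.59, adjusted p = 5.7e-04) on the log2 scale, and GREEN versus RED gave 0.42 (SE 0.51, adjusted p = 0.61). Col5a2, whose gene lies tail to tail with Col3a1 on chromosome 1 with 24614 bp between them, was at 0.234, 2.06, 0.512, 0.513 and 0.561 CPM in CTL 1 to 5, 14.9, 9.66, 15.4, 24.2 and 37.5 CPM in RED 1 to 5, and 32.7, 24, 39.9, 49 and 67 CPM in GREEN 1 to 5. RED 5 lay above GREEN 1 and GREEN 2, and CTL lay apart. The differences of Col5a2 were 4.58 (SE 0.56, adjusted p = 3.8e-04) and 1.05 (SE 0.46, adjusted p = 0.14). The second was called by limma-voom (adjusted p = 0.03) and not by DESeq2. Col5a3, the third chain of the type, was at 49.1, 18, 7.16, 90.8 and 62.2 CPM in CTL 1 to 5, 34.5, 31.7, 35.3, 41 and 43.6 CPM in RED 1 to 5, and 40.5, 33.1, 22.3, 14.3 and 17.8 CPM in GREEN 1 to 5. Its 5 CTL samples spanned the range of all others, from CTL 3 the lowest to CTL 4 the highest of all 15, and no comparison passed (adjusted p = 0.78, 0.47 and 0.18 for the comparisons of RED with CTL, GREEN with RED and GREEN with CTL). Without CTL 3, GREEN versus CTL passed for Col5a3, with a log2 fold change of -1.22 (adjusted p = 0.026).

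The other fibrillar chains were low or went their own way. Col27a1, a minor fibrillar chain of cartilage, was at 61.5, 18, 8.46, 50.6 and 65.9 CPM in CTL 1 to 5, 6.75, 10.3, 17.3, 28.6 and 26.8 CPM in RED 1 to 5, and 29.4, 33.5, 56.1, 79 and 92 CPM in GREEN 1 to 5. CTL 1, CTL 4 and CTL 5 were above every RED sample, CTL 2 and CTL 3 lay within the RED range, and every GREEN sample was above every RED sample. The log2 fold changes of Col27a1 were -1.20 (SE 0.56, adjusted p = 0.19) and 1.67 (SE 0.57, adjusted p = 0.066), neither past the threshold. Col27a1 passed in RED versus CTL without CTL 3 (adjusted p = 0.045), and in GREEN versus RED without CTL 3 or GREEN 1 (adjusted p 0.041 to 0.048) and with DESeq2 (adjusted p = 0.021). Col24a1, the other chain of that branch, was at 0.104 to 0.261 CPM in CTL, 0.337 to 0.741 in RED and 0.269 to 0.738 in GREEN. Col24a1 rose in RED versus CTL by 1.91 (SE 0.42, adjusted p = 0.0051) on the log2 scale and stood at -0.20 (SE 0.38, adjusted p = 0.75) in GREEN versus RED. The rise was not called in experiment 1 alone (adjusted p = 0.069), in experiment 2 alone (adjusted p = 0.081) or with the experiment 1 library of the 4 samples that had both (adjusted p = 0.065). Col11a2 was at 0.748 to 2.3 CPM in CTL, 0.552 to 1.6 in RED and 0.945 to 2.63 in GREEN, with adjusted p = 0.74, 0.5 and 0.77. Col2a1, the chain of cartilage collagen, had 0 counts in CTL and RED and 3 counts in GREEN, all in GREEN 4. Col11a1 had 7, 13 and 34 counts in CTL, RED and GREEN. In bulk RNA, fewer cells of a type and less RNA per cell cannot be told apart, which holds for every level given here.

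**Figure D3:**
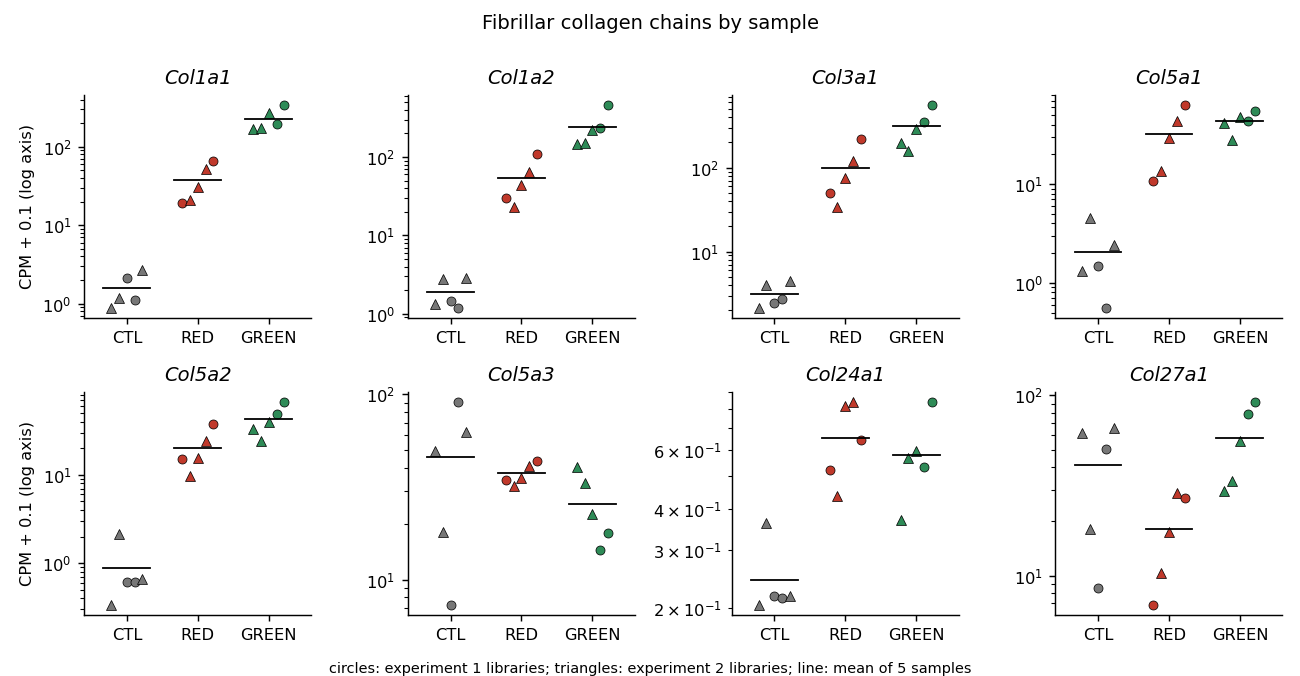
Levels of 8 fibrillar chains in each of the 15 samples, as CPM with 0.1 added on a log axis, with 1 panel per gene, circles for experiment 1, triangles for experiment 2, and a line at the mean of 5 samples. Col1a1 and Col1a2 separate all 3 groups, Col5a1 and Col5a2 separate CTL from the other groups, and Col5a3 and Col27a1 spread widely within CTL.

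Type IV chains assemble as 3 known heterotrimers, and their genes lie as head-to-head pairs, which makes them natural groups. Col4a1 and Col4a2 form the network found in nearly all basement membranes, and their annotated 5′ ends overlap by 22 bp on chromosome 8. Col4a1 was at 28.5, 13.1, 3.54, 26.7 and 69.7 CPM in CTL 1 to 5, 47.4, 58.4, 136, 245 and 443 CPM in RED 1 to 5, and 156, 144, 301, 433 and 278 CPM in GREEN 1 to 5. RED 1 and RED 2 were below CTL 5, the highest CTL sample, and all GREEN samples lay within the RED range. The log2 fold change of Col4a1 was 2.66 (SE 0.76, adjusted p = 0.026) in RED versus CTL and 0.49 (SE 0.70, adjusted p = 0.67) in GREEN versus RED. The RED versus CTL call was not made without CTL 1, CTL 2, CTL 4, RED 4 or RED 5 (adjusted p 0.063 to 0.09). Col4a2 was at 29.8, 8.39, 2.72, 27.1 and 79.9 CPM in CTL 1 to 5, 34.5, 43.8, 103, 172 and 288 CPM in RED 1 to 5, and 115, 103, 205, 275 and 189.6 CPM in GREEN 1 to 5. As for Col4a1, RED 1 was the lowest and RED 5 the highest RED sample, and CTL 5 was above RED 1 and RED 2. Col4a2 gave 2.10 (SE 0.79, adjusted p = 0.094) and 0.47 (SE 0.74, adjusted p = 0.71), and passed in RED versus CTL without CTL 5 (adjusted p = 0.024). DESeq2 called Col4a2 in RED versus CTL too (adjusted p = 0.021), and limma-voom did not. In GREEN versus CTL both rose, Col4a1 by 3.15 (SE 0.78, adjusted p = 0.0046) and Col4a2 by 2.56 (SE 0.80, adjusted p = 0.017) on the log2 scale, the latter not without CTL 4 (adjusted p = 0.054).

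The Col4a3 and Col4a4 genes start 71 bp apart on chromosome 1, and their chains join that of Col4a5 in specialised basement membranes such as that of the kidney glomerulus. Col4a3 was at 0.676, 1.1, 0.433, 0.285 and 0.679 CPM in CTL 1 to 5, 0.849, 1.01, 1.99, 1.84 and 1.21 CPM in RED 1 to 5, and 3.18, 5.37, 10.5, 13.8 and 21.7 CPM in GREEN 1 to 5. CTL and RED overlapped, and all GREEN samples were above all RED samples. The log2 fold change was 1.09 (SE 0.50, adjusted p = 0.18) in RED versus CTL and 2.95 (SE 0.52, adjusted p = 0.0027) in GREEN versus RED. Col4a4 was at 0.26, 0.314, 0, 0.057 and 0.177 CPM in CTL 1 to 5, 0.382, 0.909, 1.41, 1.62 and 1.17 CPM in RED 1 to 5, and 4.57, 6.47, 16.6, 13.4 and 19.9 CPM in GREEN 1 to 5. No groups of Col4a4 overlapped, and its CTL libraries held 29 counts in all. Col4a4 rose by 2.67 (SE 0.63, adjusted p = 0.0087) in RED versus CTL and by 3.53 (SE 0.59, adjusted p = 0.0018) in GREEN versus RED. The first was not called by limma-voom (adjusted p = 0.074).

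Col4a5 and Col4a6 start 1308 bp apart on the X chromosome, and the alpha 5 and alpha 6 chains together make the third network, known from epithelial and smooth muscle basement membranes. Col4a5 was at 4.6, 7.79, 7.87, 3.08 and 3.25 CPM in CTL 1 to 5, 15.1, 20.9, 14.9, 11.1 and 10.7 CPM in RED 1 to 5, and 34.3, 35.1, 61.1, 87.8 and 96.7 CPM in GREEN 1 to 5. The 3 groups did not overlap, and within RED the samples that were high for Col4a1, RED 4 and RED 5, were the lowest for Col4a5. Col4a5 rose by 1.47 (SE 0.35, adjusted p = 0.0088) and 2.04 (SE 0.35, adjusted p = 0.0023). Col4a6 was at 0.13, 0.418, 0, 0 and 0.148 CPM in CTL 1 to 5, 0.467, 0.597, 0.718, 1.5 and 0.7 CPM in RED 1 to 5, and 5.73, 8.94, 23.6, 27.2 and 31.3 CPM in GREEN 1 to 5. RED was above CTL in every sample, at levels of at most 1.5 CPM, and GREEN was above RED in every sample. The differences were 2.34 (SE 0.72, adjusted p = 0.04) and 4.59 (SE 0.68, adjusted p = 9.4e-04), the first not called without CTL 1, CTL 3, CTL 4, CTL 5, RED 3, RED 4, RED 5 or GREEN 3 (adjusted p 0.053 to 0.13). In RED versus CTL, limma-voom did not call Col4a6 (adjusted p = 0.11). In GREEN versus RED, the calls of Col4a3, Col4a4, Col4a5 and Col4a6 held when any 1 sample was left out. They were not made in experiment 2 alone (adjusted p 0.067 to 0.14) or without GREEN 4 and GREEN 5 (adjusted p 0.053 to 0.091), with log2 fold changes of 1.48 to 3.76 in those fits.

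Collagens XV and XVIII are basement membrane collagens with side chains of sugar, and the end of collagen XVIII can be released as endostatin; hepatocytes are a known source of collagen XVIII. Col18a1 was at 1798, 1753, 1402, 1659 and 1765 CPM in CTL 1 to 5, 1363, 1661, 1371, 1194 and 884 CPM in RED 1 to 5, and 1519.7, 1213, 662, 319 and 525 CPM in GREEN 1 to 5. CTL 3 was the lowest CTL sample, and GREEN reached from GREEN 1, within the CTL range, down to GREEN 4. The log2 fold change was -0.38 (SE 0.29, adjusted p = 0.46) in RED versus CTL, -0.71 (SE 0.30, adjusted p = 0.12) in GREEN versus RED and -1.10 (SE 0.30, adjusted p = 0.0084) in GREEN versus CTL. Col18a1 passed in GREEN versus RED without GREEN 1 (adjusted p = 0.029). The fall in GREEN versus CTL was not called with library totals (log2 fold change -0.42, adjusted p = 0.099, beside a median of 0.83 for all genes), in experiment 2 alone (-0.65, adjusted p = 0.16) or without GREEN 4 and GREEN 5 (-0.76, adjusted p = 0.07). Col15a1 was at 24, 28.9, 19.4, 38 and 31.2 CPM in CTL 1 to 5, 9, 9.06, 12.5, 17.5 and 13.6 CPM in RED 1 to 5, and 15.2, 17.1, 31.8, 23.3 and 37.7 CPM in GREEN 1 to 5. Every RED sample was below every CTL sample, and GREEN overlapped both. Col15a1 fell in RED versus CTL, with a log2 fold change of -1.19 (SE 0.28, adjusted p = 0.0074), and rose in GREEN versus RED by 1.01 (SE 0.28, adjusted p = 0.031). The fall was not called with library totals (-0.87, adjusted p = 0.073, beside a median of 0.33 for all genes) or in experiment 2 alone (-1.11, adjusted p = 0.085). The rise was not called without CTL 1, RED 1, RED 2, RED 3, RED 5, GREEN 3, GREEN 4 or GREEN 5 (adjusted p 0.052 to 0.12). GREEN versus CTL gave -0.19 (SE 0.27, adjusted p = 0.6) for Col15a1.

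**Figure D4:**
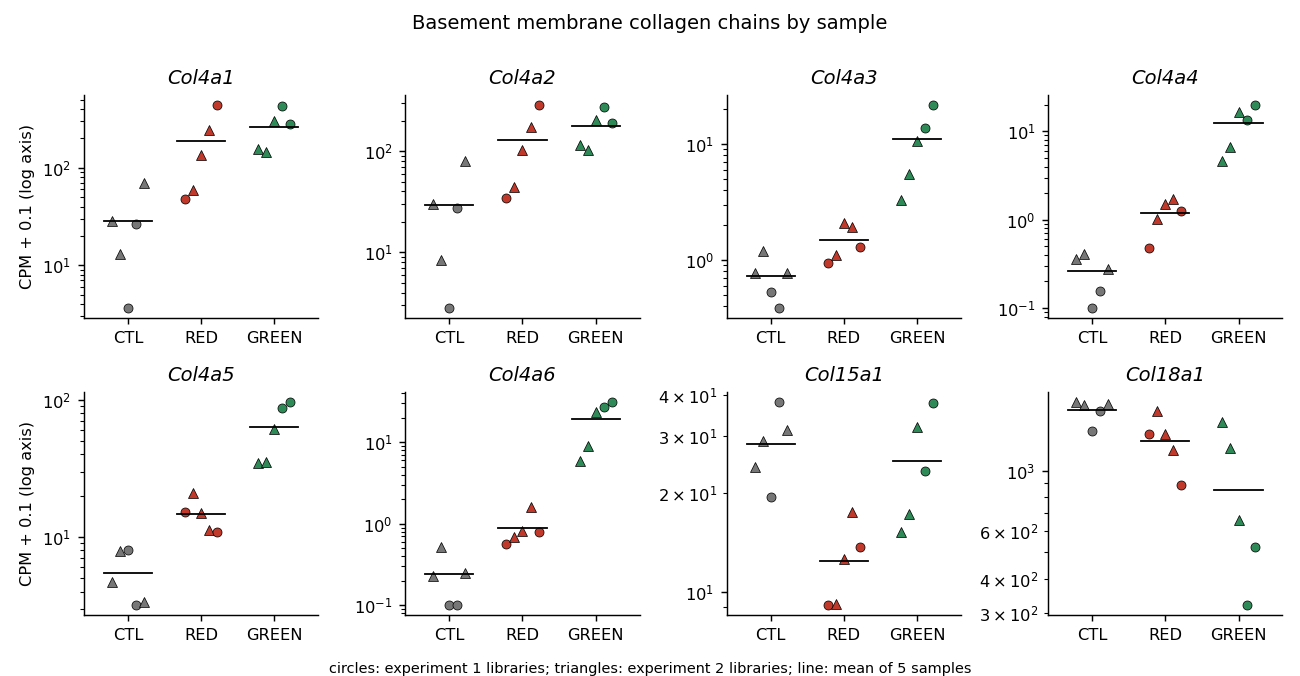
Levels of the 8 basement membrane chains in each of the 15 samples, as CPM with 0.1 added on a log axis, with circles for experiment 1, triangles for experiment 2, and a line at the mean of 5 samples. The means of Col4a3 to Col4a6 are highest in GREEN, that of Col15a1 is lowest in RED, and that of Col18a1 is highest in CTL.

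Collagen VI forms beaded filaments around cells from the chains Col6a1, Col6a2 and a longer chain, Col6a3, Col6a4, Col6a5 or Col6a6. Col6a1 was at 0.286, 1.12, 0.276, 0.456 and 0.62 CPM in CTL 1 to 5, 8.23, 7.55, 11.3, 22.6 and 43.5 CPM in RED 1 to 5, and 37.1, 30.8, 59.2, 72.5 and 103 CPM in GREEN 1 to 5. RED 5 reached above GREEN 1 and GREEN 2, and CTL lay apart from both groups. Col6a1 rose by 4.89 (SE 0.59, adjusted p = 3.8e-04) and 1.68 (SE 0.48, adjusted p = 0.037) in RED versus CTL and in GREEN versus RED. Col6a2, its neighbour on chromosome 10, was at 3.59, 1.99, 0.472, 0.456 and 1.15 CPM in CTL 1 to 5, 5.05, 9.97, 8.38, 13.7 and 24 CPM in RED 1 to 5, and 35.7, 23.4, 47.7, 52.6 and 66.5 CPM in GREEN 1 to 5. RED 5 was above GREEN 2, and CTL again lay apart. The differences of Col6a2 were 2.96 (SE 0.57, adjusted p = 0.0024) and 1.89 (SE 0.53, adjusted p = 0.033). In GREEN versus RED, Col6a1 was not called without CTL 1, CTL 5, RED 1, RED 2, RED 3, GREEN 3, GREEN 4 or GREEN 5 (adjusted p 0.052 to 0.12), nor Col6a2 without RED 1, RED 2, RED 3, RED 4, GREEN 3, GREEN 4 or GREEN 5 (adjusted p 0.057 to 0.11).

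Col6a3 was at 0.728, 1.2, 0.433, 0.57 and 1.39 CPM in CTL 1 to 5, 13.2, 13.7, 20.7, 46.9 and 56.4 CPM in RED 1 to 5, and 89.8, 58.6, 169, 128 and 232 CPM in GREEN 1 to 5. No groups overlapped, with GREEN 2 the sample nearest to RED. Col6a3 rose by 5.05 (SE 0.57, adjusted p = 2.9e-04) and 2.15 (SE 0.48, adjusted p = 0.012), the second not called without GREEN 5 (adjusted p = 0.053). Col6a5, Col6a6 and Col6a4 lie beside each other on chromosome 9. Col6a5 was at 0.13, 0.366, 0, 0.114 and 0 CPM in CTL 1 to 5, 0.721, 0.727, 0.742, 0.979 and 1.21 CPM in RED 1 to 5, and 5.65, 1.86, 12.3, 7.25 and 8.95 CPM in GREEN 1 to 5. It rose by 2.73 (SE 0.74, adjusted p = 0.02) and 3.04 (SE 0.66, adjusted p = 0.0097), with no overlap of groups. Neither call of Col6a5 was made in experiment 2 alone (adjusted p = 0.23 for each), nor the second without GREEN 4 and GREEN 5 (adjusted p = 0.24). Col6a6 was at 0.354 to 1.53 CPM in CTL, 0.817 to 2.79 in RED and 2.86 to 11 in GREEN. CTL and RED overlapped for Col6a6 (0.61, SE 0.50, adjusted p = 0.49), and it rose in GREEN versus RED by 2.12 (SE 0.50, adjusted p = 0.016), not called without RED 1 or GREEN 5 (adjusted p 0.056 to 0.059). Col6a4 had 1, 47 and 42 counts in CTL, RED and GREEN, and most of its RED counts were in RED 5 (1.32 CPM, against 0 to 0.182 in the other RED samples).

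Among the chains that coat fibrils, Col14a1, a marker of fibroblasts and stellate cells in many tissues, was at 6.26, 21.4, 5.87, 4.9 and 11 CPM in CTL 1 to 5, 62.6, 40.1, 135, 197 and 323 CPM in RED 1 to 5, and 84.4, 73.2, 116, 161 and 147 CPM in GREEN 1 to 5. RED and GREEN lay above CTL and overlapped each other, with RED 5 the highest sample. Col14a1 rose by 3.89 (SE 0.60, adjusted p = 6.4e-04) in RED versus CTL, and GREEN versus RED gave -0.39 (SE 0.53, adjusted p = 0.66). Col12a1, of the same family, was at 2.21, 1.78, 1.97, 2.22 and 3.39 CPM in CTL 1 to 5, 4.2, 4.18, 3.11, 5.42 and 5.21 CPM in RED 1 to 5, and 8.79, 9.82, 14.9, 13.9 and 25.9 CPM in GREEN 1 to 5. Its levels rose by 0.92 (SE 0.28, adjusted p = 0.039) and 1.70 (SE 0.28, adjusted p = 0.0018), and GREEN did not overlap RED, while CTL 5 was above RED 3. The first of these calls was not made without CTL 1, CTL 2, CTL 3, CTL 4, RED 1, RED 2, RED 4 or RED 5 (adjusted p 0.053 to 0.15). Nor was it made by limma-voom (adjusted p = 0.14). Col16a1 was at 0.118 to 10.7 CPM in CTL, 2.59 to 11.7 in RED and 12.7 to 44.1 in GREEN, and rose in GREEN versus CTL by 3.12 (SE 0.72, adjusted p = 0.003). For Col16a1, GREEN versus RED gave 2.03 (SE 0.68, adjusted p = 0.064) and passed without CTL 3 or CTL 4 (adjusted p 0.019 to 0.04), and RED versus CTL gave 1.09 (SE 0.69, adjusted p = 0.35). DESeq2 (adjusted p = 0.021) and limma-voom (adjusted p = 0.028) called Col16a1 in GREEN versus RED. Of the collagen IX chains, found with cartilage fibers, Col9a2 had 1, 5 and 256 counts in CTL, RED and GREEN, a GREEN to CTL ratio of 160.1 with a counting interval of 28.5 to 6347. Col9a2 was at 0.414, 0.408, 1.22, 2.17 and 0.922 CPM in GREEN 1 to 5 and rose in GREEN versus RED by 4.91 (SE 0.76, adjusted p = 0.0012). Col9a3 was at 1.02 to 2.85 CPM in CTL, 1.17 to 2.83 in RED and 2.59 to 6.15 in GREEN, and its rise in GREEN versus RED (1.33, SE 0.40, adjusted p = 0.044) was not called without CTL 1, RED 1, RED 3, RED 4, RED 5, GREEN 3, GREEN 4 or GREEN 5 (adjusted p 0.055 to 0.12). Nor was this rise called by limma-voom (adjusted p = 0.053).

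The short network-forming collagen VIII, known from vessel walls and the cornea, had chains that differed between comparisons. Col8a1 was at 0.104, 0.105, 0, 0 and 0.059 CPM in CTL 1 to 5, 0.764, 1.04, 0.599, 5.64 and 2.76 CPM in RED 1 to 5, and 2.05, 0.959, 5.37, 4.63 and 5.21 CPM in GREEN 1 to 5. CTL lay apart from RED, and RED and GREEN overlapped. Col8a1 rose by 5.08 (SE 0.90, adjusted p = 0.0013) in RED versus CTL and gave 0.77 (SE 0.69, adjusted p = 0.48) in GREEN versus RED. Col8a2 was at 0.052, 0.0784, 0.354, 0.171 and 0.059 CPM in CTL 1 to 5, 0.17, 0.182, 0.12, 0.239 and 0.389 CPM in RED 1 to 5, and 0.827, 1.31, 1.94, 2.64 and 2.91 CPM in GREEN 1 to 5. All GREEN samples were above all others, and CTL and RED overlapped. Col8a2 gave 0.82 (SE 0.44, adjusted p = 0.26) in RED versus CTL and rose by 3.04 (SE 0.40, adjusted p = 4.8e-04) in GREEN versus RED. Col28a1, a beaded-filament collagen known from peripheral nerve, had no counts in the 5 CTL libraries and was at 0.127, 0.104, 0.0239, 0.0239 and 0.117 CPM in RED 1 to 5 and 0.455, 1.69, 2.71, 2.96 and 2.88 CPM in GREEN 1 to 5. Against the floor of 3 counts over the CTL group, Col28a1 was at least 3.58-fold higher in RED and at least 109.8-fold higher in GREEN. RED held 12 counts of it, and the RED versus CTL call (adjusted p = 0.025) was not made without RED 5 (adjusted p = 0.054). GREEN versus RED gave a rise of 4.77 (SE 0.62, adjusted p = 0.0012).

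Col13a1, Col17a1 and Col23a1 are membrane-spanning collagens, and their patterns differed. Col13a1, found at cell junctions, was at 0.961, 1.8, 0.157, 0.855 and 1.45 CPM in CTL 1 to 5, 4.29, 4.8, 12.6, 16.7 and 42.6 CPM in RED 1 to 5, and 6.18, 8, 11.1, 16.1 and 5.65 CPM in GREEN 1 to 5. RED lay above CTL in every sample, and RED 4 and RED 5 were above all GREEN samples. Col13a1 rose by 3.86 (SE 0.71, adjusted p = 0.0017) in RED versus CTL, and GREEN versus RED gave -0.76 (SE 0.61, adjusted p = 0.42). Col17a1, of the attachment plaques of epithelia, was at 0 to 0.366 CPM in CTL, 0.509 to 3.85 in RED and 0.461 to 1.54 in GREEN. It rose in RED versus CTL by 2.74 (SE 0.73, adjusted p = 0.017), not called without RED 4 or RED 5 (adjusted p 0.063 to 0.072), and in GREEN versus CTL by 1.91 (SE 0.71, adjusted p = 0.038), not called without CTL 1, CTL 2, CTL 3, CTL 4, CTL 5, RED 4, GREEN 1, GREEN 3 or GREEN 4 (adjusted p 0.051 to 0.098). Col23a1 was at 0.118 to 0.416 CPM in CTL, 0.0849 to 0.884 in RED and 1.05 to 3.75 in GREEN, with 0.84 (SE 0.52, adjusted p = 0.35) in RED versus CTL and a rise of 2.03 (SE 0.50, adjusted p = 0.02) in GREEN versus RED that was not called without GREEN 3 or GREEN 5 (adjusted p 0.057 to 0.069). Col7a1, which forms the anchoring fibrils beneath epithelia, was at 0.157 to 0.78, 0.297 to 0.778 and 0.857 to 2.31 CPM in the 3 groups and rose in GREEN versus CTL by 1.48 (SE 0.47, adjusted p = 0.019), not called without CTL 2, CTL 3, CTL 5 or GREEN 5 (adjusted p 0.053 to 0.069). Within GREEN versus RED, Col7a1 gave 1.21 (SE 0.46, adjusted p = 0.093), although no GREEN sample was below a RED sample. That difference was called by DESeq2 (adjusted p = 0.047) and not by limma-voom.

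No comparison passed for Col10a1, Col20a1, Col22a1, Col25a1 and Col26a1, whose levels were between 0 and 8.38 CPM in all 15 samples. The highest of these values was that of Col20a1 in RED 3. Col9a1 had 1, 0 and 6 counts in CTL, RED and GREEN, and Col19a1 had 3, 5 and 9.

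Levels of different chains can be set side by side only per length, here as CPM per kilobase of exon, the union of all annotated exons of a gene. Col18a1 had the highest level per kilobase in each group, with medians of 249.7 in CTL, 194.1 in RED and 94.2 in GREEN. In CTL the next gene was Col5a3 at a median of 7.21 (range 1.05 to 13.3), followed by Col15a1 at 4.55, and these neighbours overlapped. Col14a1 came next in RED, at 19.2 (range 5.72 to 46), with Col4a1 at 18.3 (range 6.35 to 59.4), which overlapped it. In GREEN the next were Col4a1 at 37.3 (range 19.3 to 58.0), Col1a1 at 29.7 and Col3a1 at 29.1, all overlapping. Measured by the longest transcript in place of the exon union, Col18a1 was still the highest in each group, and Col3a1 came second in GREEN at 51.4.

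Summed per kilobase over all 44 genes, collagen RNA was 210.4 to 298.5 in CTL, 244.1 to 371.1 in RED and 320.6 to 427.1 in GREEN. The 43 genes other than Col18a1 made up 5.08% to 15.8% of the sum in CTL, 17.6% to 66.1% in RED and 42.8% to 86.8% in GREEN. Fibrillar chains were 1.28% to 6.61%, 5.83% to 16.5% and 19.5% to 39.9% of it, and these shares did not overlap between GREEN and RED. Basement membrane chains without Col18a1 were 6.31% to 28.8% in RED and 12.5% to 35.4% in GREEN, which overlapped. The class of other chains overlapped too, at 5.11% to 20.8% in RED and 10.7% to 21.4% in GREEN. The sum of fibrillar chains was 12.8, 5.72, 2.70, 18.1 and 15.9 per kilobase in CTL 1 to 5, 19, 16.7, 27.7, 41.6 and 61.1 in RED 1 to 5, and 73.8, 68.5, 105.7, 103.4 and 170.5 in GREEN 1 to 5. Among fibrillar chains the highest medians in CTL were those of Col5a3 (7.21) and Col27a1 (3.89), and in GREEN those of Col1a1 (29.7), Col3a1 (29.1) and Col1a2 (17.8).

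**Figure D5:**
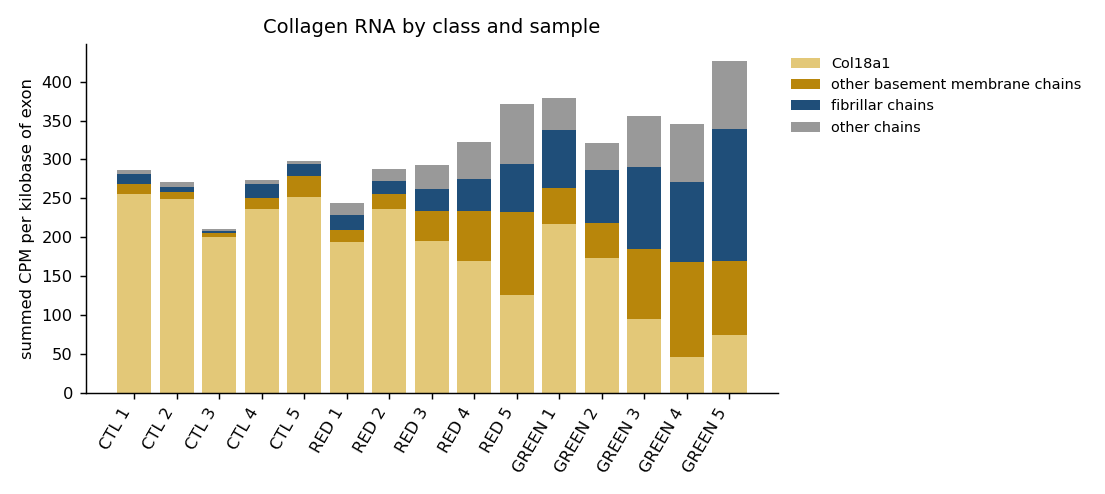
Stacked bars give the summed level per kilobase of exon of Col18a1, the other basement membrane chains, the fibrillar chains and the other chains in each of the 15 samples. The Col18a1 part is lowest in GREEN 4, and the fibrillar part is at least 68.5 in every GREEN sample and at most 61.1 in RED.

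Ratios between chains depend on the length each gene is given. Per kilobase of exon, the median Col1a1 to Col1a2 ratio was 1.77 in CTL, 1.34 in RED and 2.17 in GREEN (ranges 0.761 to 2.90, 1.15 to 1.74 and 1.41 to 2.31). By longest transcript the medians were 0.844, 0.640 and 1.03, so the data do not say which chain was the more abundant. The Col3a1 to Col1a1 ratio had medians of 1.71, 1.62 and 0.782, with ranges of 1.10 to 2.20 in RED and 0.613 to 1.21 in GREEN. The Col4a1 to Col4a2 ratio was 1.17 to 1.36 in RED and 1.20 to 1.40 in GREEN, beside 0.773 to 1.38 in CTL.

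Chains are folded and modified in the endoplasmic reticulum before export, and of 20 genes for this 9 rose and 0 fell in RED versus CTL (edgeR; 1 lower at an unadjusted p under 0.05, 0 by DESeq2 and limma-voom). Examples are Plod2, a lysyl hydroxylase (4.93, SE 0.70, adjusted p = 5.2e-04), and Serpinh1, the collagen chaperone HSP47 (4.69, SE 0.75, adjusted p = 7.6e-04). In GREEN versus RED 4 rose, Plod2 (2.33, SE 0.53, adjusted p = 0.013), P3h2 and P3h4 among them, and Tmem38b fell (-0.61, SE 0.16, adjusted p = 0.026). Of 16 genes for trimming and crosslinking (13 tested), 10 rose in RED versus CTL. Lox, which starts the crosslinks of fibers, was at 0 to 0.0295 CPM in CTL, 0.234 to 4.08 in RED and 1.55 to 8.59 in GREEN. Its paralog Loxl1 was at 0 to 0.177, 0.961 to 5.95 and 10.2 to 41.5 CPM, and both rose again in GREEN versus RED, by 1.91 (SE 0.54, adjusted p = 0.036) and 3.20 (SE 0.54, adjusted p = 0.002). The third of the 3 genes that rose there was Adamts2, which trims the start of procollagen (1.34, SE 0.36, adjusted p = 0.029).

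Receptors for collagen rose in 7 of 11 cases in RED versus CTL and in 6 of 11 in GREEN versus RED. Ddr1, a receptor kinase of epithelia, gave 4.26 (SE 0.70, adjusted p = 9.3e-04) and 2.67 (SE 0.63, adjusted p = 0.016), and Ddr2, its counterpart on mesenchymal cells, 3.21 (SE 0.48, adjusted p = 5.7e-04) in RED versus CTL. Of 8 degrading enzymes (6 tested) 4 rose in RED versus CTL and 2 in GREEN versus RED. Mmp2, a gelatinase, was at 0.13 to 0.235 CPM in CTL, 3.58 to 18.9 in RED and 22.4 to 123 in GREEN, and rose by 5.28 (SE 0.47, adjusted p = 1.8e-04) and 2.65 (SE 0.37, adjusted p = 6.3e-04). Of 11 small proteoglycans that coat fibrils (8 tested), 6 rose in RED versus CTL, Dcn (3.68, SE 0.54, adjusted p = 5.4e-04) and Lum (4.15, SE 0.67, adjusted p = 7.7e-04) among them, and 2 in GREEN versus RED, Fmod (4.04, SE 0.61, adjusted p = 0.001) and Lum (1.96, SE 0.58, adjusted p = 0.041). Of 13 basement membrane partners, 10 rose in RED versus CTL. In GREEN versus RED 4 of them rose: Agrn (2.02, SE 0.33, adjusted p = 0.0016), the laminin chains Lama5 (3.00, SE 0.61, adjusted p = 0.0067) and Lamb2 (2.43, SE 0.58, adjusted p = 0.016), and Smoc2 (1.89, SE 0.49, adjusted p = 0.024). No gene of the lists for trimming, receptors, degradation, proteoglycans and basement membrane partners fell in either comparison (edgeR; at an unadjusted p under 0.05, 0 fell in RED versus CTL, and 1 of the trimming, 1 of the degrading and 1 of the basement membrane list in GREEN versus RED, each called by DESeq2 and not by limma-voom).

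Markers of cells other than hepatocytes differed in which comparison they rose. All 10 stellate cell markers rose in RED versus CTL, and their summed level was 30.8 to 90.8 CPM in CTL, 209.2 to 1057 in RED and 351.8 to 827.9 in GREEN. None of the 10 passed in GREEN versus RED (edgeR; 2 higher at an unadjusted p under 0.05, and 0 by DESeq2 and limma-voom). Of 8 portal fibroblast markers (7 tested) 4 rose in RED versus CTL and 6 in GREEN versus RED, with sums of 5.64 to 10.4, 20.4 to 30.8 and 62.5 to 394.4 CPM and with Clec3b at 0 counts in CTL. Dpt of this list gave 5.04 (SE 0.51, adjusted p = 2.0e-04) and 3.62 (SE 0.37, adjusted p = 9.2e-05). Of 6 mesothelial markers 4 rose in each comparison, with sums of 0.676 to 2.99, 3.25 to 5.56 and 12.4 to 65.9 CPM and with Upk3b and Upk1b at 0 counts in CTL. Of 5 smooth muscle markers (4 tested) 4 rose in RED versus CTL and 0 in GREEN versus RED (edgeR; 0 at an unadjusted p under 0.05, 0 by DESeq2 and 1 by limma-voom). Their sums were 2.30 to 3.53, 4.70 to 82.3 and 9.22 to 47.8 CPM, and Lmod1 had 0 counts in CTL.

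All 13 endothelial markers rose in RED versus CTL, with sums of 54.2 to 169.7, 481.1 to 2472 and 400.5 to 933.6 CPM, and none passed in GREEN versus RED (edgeR; 1 lower at an unadjusted p under 0.05, 0 by DESeq2 and limma-voom). All 10 macrophage markers rose in RED versus CTL and 3 fell in GREEN versus RED, with sums of 35.7 to 99.7, 110.7 to 1390 and 123.8 to 425.7 CPM. Of 10 bile duct markers 2 rose in RED versus CTL (edgeR; 6 at an unadjusted p under 0.05, 6 by DESeq2 and 0 by limma-voom) and 9 in GREEN versus RED, with sums of 21.8 to 57.2, 42.8 to 69.1 and 126.7 to 1098 CPM and with Cftr at 0 counts in CTL. Krt19, a bile duct keratin, had 1 count in the CTL libraries, 81 in RED and 13556 in GREEN, and rose in GREEN versus RED by 6.63 (SE 0.63, adjusted p = 7.9e-05) on the log2 scale. Of 6 neutrophil markers (4 tested) 3 rose in RED versus CTL, and of 7 lymphocyte markers (2 tested), whose sums were 2.39 CPM or less in every sample, none passed in either comparison (edgeR; 0 also at an unadjusted p under 0.05 and by DESeq2 and limma-voom). Across the RED samples, RED 5 had the highest sums of stellate, endothelial and macrophage markers, and it was the highest RED sample for 19 of the 39 tested collagen genes, while RED 1 was the lowest for 21. Without RED 5, 15 collagen genes were called higher in RED versus CTL. Across the GREEN samples, GREEN 5 was the highest for 19 of the 39 genes. Its endothelial sum of 400.5 CPM was the lowest of GREEN, and its macrophage sum of 284.7 CPM was the median. The stellate sum of GREEN 5 was 731.5 CPM, below the 827.9 CPM of GREEN 4. RED 1, RED 5 and GREEN 5 entered as experiment 1 libraries. How often each sample was the highest or lowest over all genes was not counted. The part of the marked cell types in the collagen values was not tested.

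Each comparison was also fitted within the 2 experiments and the difference between them tested. No collagen gene passed in any of the 3 comparisons (edgeR, with no other tool run; of 39 genes, 3, 2 and 7 had an unadjusted p under 0.05 in RED against CTL, GREEN against RED and GREEN against CTL). Over all 16387 genes tested, 665, 1437 and 2106 had an unadjusted p under 0.05 in the same comparisons (edgeR), and 1, 0 and 0 passed. Col1a1 rose by 4.77 on the log2 scale in experiment 1 and 4.57 in experiment 2 in RED versus CTL, and by 2.66 and 2.55 in GREEN versus RED. In RED versus CTL the genes with an unadjusted p under 0.05 were Col6a2 (4.96 in experiment 1 and 2.25 in experiment 2), Col4a6 (7.48 and 2.00) and Col20a1 (-1.97 and 0.00), each with an edgeR adjusted p of 1. Col4a3 gave 4.10 and 1.98 in GREEN versus RED, with the smallest unadjusted p of that comparison for this gene, 0.011 (adjusted p = 0.56). Col18a1 gave -1.86 and -0.65 in GREEN versus CTL (adjusted p = 0.36 for the difference). With 2 and 3 libraries per group, differences of this size between experiments were not called.

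The 4 samples sequenced in both experiments can be compared with themselves. Collagen levels were mostly lower in the experiment 1 library: for 15 of 20 genes in CTL 5, 20 of 23 in RED 2, 21 of 25 in RED 3 and 25 of 27 in RED 4, counting genes at a mean of 1 CPM or more. The median log2 difference, experiment 1 minus experiment 2, was -0.14, -0.40, -0.29 and -0.27 in these samples. Only collagen genes were compared in this way. Whether other genes differed alike between the libraries was not tested. Col1a1 was at 2.3 and 2.5 CPM in CTL 5, 13.8 and 20.5 in RED 2, 22 and 30.3 in RED 3, and 36 and 52.2 in RED 4, experiment 1 first. Col18a1 was at 1471 and 1716, 1239.9 and 1632, 1092 and 1343, and 1052 and 1182 CPM. The RED libraries were above the CTL 5 libraries for Col1a1 with either kit.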

How the data were processed

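By title, RNA of 15 samples was sequenced in 19 libraries from 150 ng of total RNA each. There were 10 in experiment 1 (TruSeq Stranded mRNA) and 9 in experiment 2 (KAPA RNA HyperPrep with RiboErase), per the labels' protocols. CTL 5, RED 2, RED 3 and RED 4 had a library in each experiment, and the experiment 2 library was used. The deposited values are the authors' estimated counts per gene, not normalized; kallisto 0.43.1 and GRCm38 were used, per the submitters' processing notes. The annotation release and the transcript summing were not given in the sources used here. Such estimation divides reads between similar sequences, which for paralogous collagen chains was not tested.

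Counts were rounded to whole numbers, filtered with filterByExpr and scaled by TMM. A model of group and experiment was tested by quasi-likelihood in edgeR 4.0.16 (R 4.3.3) on 16387 genes, with Benjamini-Hochberg adjustment over all genes and a threshold of 0.05. Adjusted p-values come from edgeR unless stated otherwise, and SE is the standard error of the log2 fold change. The script was tested on simulated data. DESeq2 1.42.0 and limma-voom (limma 3.58.1) were alternatives, beside other scaling, no filter, other samples and replicate blocks. Intervals and floors cover counting error only, at a confidence level of 95% (exact binomial), and the floor is 3 counts. Symbols, positions and coding sequence came from GENCODE M21 on GRCm38. The members and lists were chosen with earlier results of these data known. Named with values were all fibrillar and basement membrane genes, other collagen genes past the threshold in a comparison, and, of each further list, at most the 4 genes of smallest adjusted p in RED versus CTL and in GREEN versus RED.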

Additional observations from a re-analysis of the deposited data

Results flagged for a closer look

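For each of the 31 collagen genes past the threshold in a comparison, the 5 samples of each group were searched for a sample far from the rest on the log2 scale (93 groups), a search in which chance alone marks about 1 group in 20. It marked 3, all in CTL and all at levels under 0.4 CPM. Col9a2 was at 0.0295 CPM in CTL 5, a single count, and at 0 in the other CTL samples. Col17a1 was at 0 CPM in CTL 4 and at 0.208 to 0.366 in the others. Col24a1 was at 0.261 CPM in CTL 2 and at 0.104 to 0.118 in the others.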

How the results depend on the processing

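The calls were followed for the tested genes among the 36 collagen genes named with values. Col10a1, Col20a1, Col22a1, Col25a1 and Col26a1 were therefore left out. Over these genes, 3 comparisons and all alternatives run, 2579 values kept their side of the threshold, 176 lost the call and 30 gained it. No called value among them changed direction, though some uncalled values did. The count of collagen genes higher in RED versus CTL was 13 in experiment 2 alone, and 15 (without RED 5) to 21 with any 1 sample left out. The count lower was 0 with library totals and 0 in experiment 2 alone, and 1 to 2 with a sample left out (2 without CTL 3 and without RED 3). Higher in GREEN versus RED were 0 in experiment 2 alone and 3 without GREEN 4 and GREEN 5, and 11 (without GREEN 5) to 21 with 1 sample left out. Lower were 1 with the experiment 1 library of the 4 samples that had both, 1 in experiment 1 alone, and 0 to 1 with a sample left out (1, Col18a1, without GREEN 1). Higher in GREEN versus CTL were 27 to 30 with a sample left out. Lower were 0 with library totals, 0 in experiment 2 alone and 0 without GREEN 4 and GREEN 5, and 1 to 3 with a sample left out (3 without CTL 3). Over all genes, 3063 were lower in GREEN versus CTL in the main fit. That count was 469 with library totals, 812 in experiment 2 alone and 1721 without GREEN 4 and GREEN 5. In RED versus CTL it went from 334 to 93 with library totals and 76 in experiment 2 alone. In GREEN versus RED it went from 539 to 2319 in experiment 1 alone. Fits in 1 experiment hold fewer samples; otherwise the cause was not tested. By longest transcript, the Col1a1 to Col1a2 ratio was 0.844, 0.640 and 1.03 in CTL, RED and GREEN, the Col3a1 to Col1a1 ratio 2.72, 2.58 and 1.25, and the Col4a1 to Col4a2 ratio 1.34 in RED and 1.43 in GREEN, since each gene's length differs between the measures.

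Deviations from the fitted group and experiment terms correlated at -0.223 to 0.578 between samples with the same title number. Between RED and GREEN samples with the same library code they correlated at 0.398 to 0.78 in 4 pairs and at -0.223 in RED 5 and GREEN 5. GREEN 3 and GREEN 4, which share a library code, correlated at 0.399. These correlations do not decide whether the samples are paired. Because no label says what the numbers mark, the main fit did not treat them as paired. With the title number as a replicate block, 18 collagen genes were higher and 1 lower in RED versus CTL, 19 and 0 in GREEN versus RED, and 28 and 1 in GREEN versus CTL; Col4a2 was then called (adjusted p = 0.0053) and Col4a6, Col6a5 and Col17a1 were not (0.084, 0.069 and 0.087) in RED versus CTL, Col27a1 was called (0.015) and Col9a3 was not (0.072) in GREEN versus RED, and Col17a1 was not called in GREEN versus CTL (0.084). With the library code as the replicate block, over RED and GREEN alone, 18 were higher and 0 lower: Col16a1 (adjusted p = 0.0055) and Col27a1 (0.011) were called, and Col4a5 (0.057), Col9a3 (0.18) and Col23a1 (0.057) were not.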
